A study of Mus musculus with 12 samples.

Results

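The 34 genes described here code for enzymes of cholesterol and fatty acid synthesis and for proteins that control them in mouse sciatic nerve. They were chosen by symbol, with earlier results of these data known. Of them, 16 belong to the sterol branch, 12 to the fatty acid branch, and 6 are the SREBP genes Srebf1, Srebf2, Scap, Insig1 and Insig2 and the sterol carrier Stard4. All 34 were present in the table of raw counts, which holds 38087 gene models, and all 34 were among the 22384 models with enough counts to be tested. RNA was measured by bulk sequencing of polyA RNA in 12 libraries, 3 biological replicates in each of 4 groups. The dKO mice, labelled Tfeb/3 SC-dKO, carried Dhh-Cre, floxed alleles of Tfeb and the Tfe3 knockout (Dhh-Cre+:Tfebflox/flox;Tfe3KO), a Cre driven from a Schwann cell lineage promoter on a Tfe3 knockout that the labels give as global. Control mice carried the same floxed Tfeb alleles without Cre and with intact Tfe3 (Dhh-Cre-:Tfebflox/flox;Tfe3+). Nerves at 5DPI were distal stumps taken 5 days after the sciatic nerve had been cut, without the stretch next to the cut, and intact nerves came from the uninjured opposite side. Per the labels, the epineurium, the outer sheath of the nerve, was stripped from intact nerves only.

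Cholesterol is made from acetyl-CoA through mevalonate, farnesyl pyrophosphate, squalene and lanosterol, and fatty acids are made from acetyl-CoA through malonyl-CoA and then lengthened and desaturated. The membrane-bound factors SREBP2 (Srebf2) and SREBP1 (Srebf1) switch on both sets of genes after the escort protein SCAP has carried them to the Golgi, and INSIG proteins hold SCAP back when sterols are plentiful. Myelin is rich in cholesterol and in very long-chain fatty acids, and myelinating Schwann cells make most of the cholesterol they use.

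The libraries held 15430999 to 35845371 counts. In CPM, counts scaled to a common library size, Tfe3 had 52.4, 53.8 and 49.5 CPM in dKO 5DPI nerves and 46.4, 47.4 and 43.3 CPM in dKO intact nerves, against 61.7, 67.6 and 55 CPM in control 5DPI nerves and 62.1, 60.8 and 56.7 CPM in control intact nerves. Tfeb had 14.2, 19.6 and 29.8 CPM in dKO 5DPI nerves and 17, 19.5 and 17.3 CPM in dKO intact nerves, against 24, 18.2 and 18.4 CPM in control 5DPI nerves and 22.6, 23.9 and 26.9 CPM in control intact nerves. Every dKO library was below every control library for Tfe3 at both times, but reads of the gene remained in the dKO libraries, and for Tfeb the groups overlapped at 5DPI. Neither gene was called between genotypes at either time, with edgeR adjusted p from 0.126 to 0.883, and a count over a whole gene model does not show whether a deleted exon is missing, so the genotypes rest on the labels. Intact libraries were rich in RNA of myelinating Schwann cells. The summed level of 12 markers of these cells was 87500 to 97600 CPM in dKO intact nerves and 80600 to 106000 CPM in control intact nerves. That the nerve was sciatic, and that 5DPI samples were distal stumps, rests on the labels. A set of 4 libraries stood apart, all 3 dKO 5DPI libraries and control 5DPI replicate 4: at equal depth they had reads on 174 to 382 olfactory receptor genes, against 53 to 78 in the other 8. Control 5DPI replicate 1 was the only library with high Xist, 10712 counts against 0 to 23 elsewhere. With a term for that set in the fit, 26 of the 27 injury calls described below in dKO nerves and all 29 in control nerves were kept, the exception being Tm7sf2 (-0.70, edgeR adjusted p 0.06). That term is estimated only from control 5DPI replicate 4 against the other control 5DPI libraries. In dKO nerves every 5DPI library and no intact library was in the set, so injury and set cannot be told apart there.

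Most of the 34 genes were lower after transection in both genotypes. Their summed level was 3920, 4490 and 6410 CPM in dKO 5DPI nerves and 12000, 13200 and 12300 CPM in dKO intact nerves, against 2760, 4120 and 4170 CPM in control 5DPI nerves and 14000, 14600 and 13300 CPM in control intact nerves. By mean CPM, Scd2, Scd1 and Fasn led this sum in every group, and the injury changes of Scd1 and Fasn were called in neither genotype. In dKO nerves, 27 members were lower at 5DPI than in intact nerve and 0 were higher, with a median log2 fold change of -1.61. Over all tested models, 22.6% were called lower and 22% higher in that comparison, with a median of 0.05. Control nerves had 28 members lower and 1 higher, Ebp, with a median of -1.68, while 22.4% of all models were called lower and 24.4% higher, with a median of 0.09. Calls are from edgeR's quasi-likelihood test with Benjamini-Hochberg adjustment over all 22384 models at a threshold of 0.05. In whole-nerve RNA, fewer cells of a type and less RNA per cell cannot be told apart. Injury and dissection cannot be told apart either, since the epineurium was stripped from intact nerves only. The summed level of 12 myelinating Schwann cell markers moved with these falls, at 4660 to 5730 CPM in dKO 5DPI nerves against 87500 to 97600 CPM in dKO intact nerves, and at 1640 to 2350 CPM in control 5DPI nerves against 80600 to 106000 CPM in control intact nerves. The 10 macrophage markers were all called higher at 5DPI in both genotypes, with medians of 2.26 in dKO and 2.28 in control nerves. The part of either cell type in the falls of the lipid genes was not tested.

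**Figure D1:**
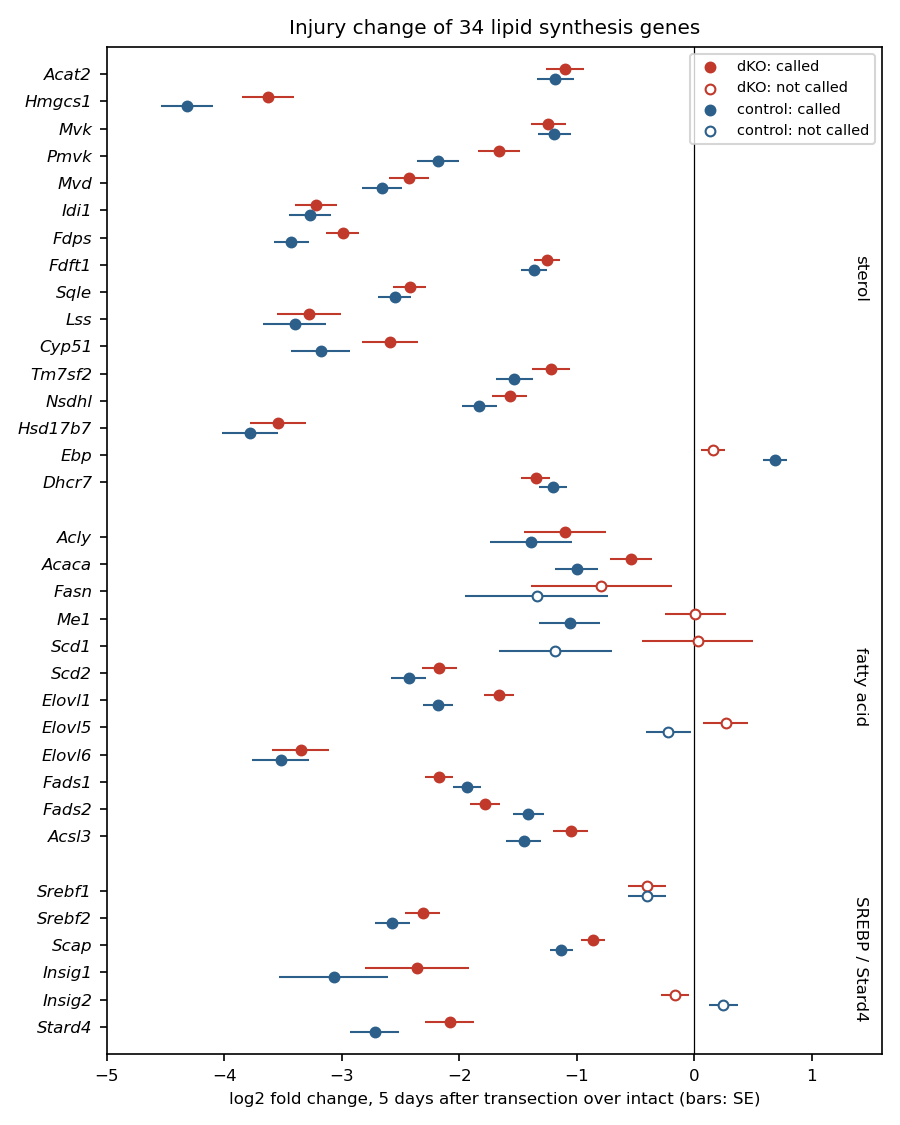
The log2 fold change of each of the 34 genes, 5DPI over intact, is plotted for dKO nerves (red) and control nerves (blue), with bars for the standard error and filled points for calls at an adjusted p under 0.05 in edgeR. Points lie left of 0 for 30 genes in dKO nerves and for 32 in control nerves, and Ebp is the filled point right of 0.

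The sterol branch had the lower medians of the 2 synthesis branches. Its median log2 fold change was -2.04 in dKO and -2.37 in control nerves, and 15 of its 16 members were lower in each genotype. Corresponding medians were -1.07 and -1.40 in the fatty acid branch, where 8 of 12 were lower in dKO and 9 of 12 in control nerves. They were -1.47 and -1.85 for the SREBP genes and Stard4, where 4 of 6 were lower in each genotype. The share of the intact level that was left at 5DPI had a branch median of 25.4% in dKO and 19.6% in control nerves for sterol genes, and of 47.6% in dKO and 37.8% in control nerves for fatty acid genes. No test of one branch against another was made.

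The early enzyme Hmgcs1, which makes HMG-CoA, fell further than any other member in both genotypes. It had 57.4, 62.7 and 100 CPM in dKO 5DPI nerves, against 815, 964 and 945 CPM in dKO intact nerves. Control 5DPI nerves had 61.1, 61.8 and 69.1 CPM of Hmgcs1, against 1010, 1570 and 1260 CPM in control intact nerves. Every 5DPI library was far below every intact library, and the change was -3.63 (SE 0.22, edgeR adjusted p 2.06e-08) in dKO and -4.32 (SE 0.22, adjusted p 3.12e-09) in control nerves. At 5DPI 8.08% of the intact level was left in dKO nerves and 5.01% in control nerves. The gene lies at chr13:119690379-119708260 on the plus strand of mm10, in the GENCODE M21 annotation.

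Idi1, the isomerase that activates the isoprenoid building block, had 9.82, 10.1 and 14.2 CPM in dKO 5DPI nerves, against 92, 112 and 111 CPM in dKO intact nerves. In control nerves it had 12.9, 14.1 and 15.8 CPM at 5DPI, against 106, 157 and 149 CPM when intact. The groups did not overlap in either genotype, and the changes were -3.22 (SE 0.18, adjusted p 6.92e-09) in dKO and -3.27 (SE 0.18, adjusted p 3.17e-09) in control nerves. Fdps, which joins isoprenoid units into farnesyl pyrophosphate, had 8.55, 7.28 and 11.1 CPM in dKO 5DPI nerves, against 68, 73.4 and 70.3 CPM in dKO intact nerves. Control 5DPI nerves had 9.49, 9.31 and 8.71 CPM of Fdps, against 86.8, 104 and 105 CPM in control intact nerves. Replicates of Fdps lay close together in all 4 groups, and it had the smallest p of the 34 genes for the mean injury change over both genotypes, with changes of -2.99 (SE 0.14, adjusted p 1.84e-09) in dKO and -3.43 (SE 0.15, adjusted p 2.72e-10) in control nerves. The exons of Fdps overlap those of the model Gm43738 on the same strand over 1124 bases, so reads may have been split between them.

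Sqle, squalene epoxidase, a rate-limiting enzyme of the pathway, had 25.7, 29.2 and 29.5 CPM in dKO 5DPI nerves, against 138, 151 and 162 CPM in dKO intact nerves. Its control levels were 33.4, 40.7 and 36.6 CPM at 5DPI, against 174, 245 and 229 CPM in intact nerve. All 3 dKO libraries were below all 3 control libraries both at 5DPI and when intact, but neither genotype difference was called (adjusted p 0.0655 at 5DPI and 0.841 in intact nerve, edgeR). At 5DPI the difference of Sqle was called lower with a replicate block (-0.51, adjusted p 0.0357) and with no low-count filter (-0.42, adjusted p 0.0482), in a range of 0.0357 to 0.444 over the alternatives. The changes of later enzymes were larger for some and smaller for others. Lss, which closes the ring of lanosterol, changed by -3.28 in dKO and -3.40 in control nerves, Hsd17b7, which works in the removal of methyl groups from the ring, by -3.54 and -3.78, and the lanosterol demethylase Cyp51 by -2.59 and -3.18. Dhcr7, the reductase that yields cholesterol from its last precursor in that route, changed by -1.35 in dKO and -1.20 in control nerves. Mvk, Pmvk and Mvd, which turn mevalonate into the isoprenoid building block, changed by -1.24, -1.66 and -2.43 in dKO nerves and by -1.19, -2.18 and -2.66 in control nerves.

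Acat2, the thiolase that feeds acetoacetyl-CoA into the pathway, fell less than the enzymes above. It had 24.6, 30.9 and 35.7 CPM in dKO 5DPI nerves, against 56.3, 75.1 and 63.2 CPM in dKO intact nerves. Control nerves had 32.4, 37 and 43 CPM of Acat2 at 5DPI, against 81, 77.4 and 96.4 CPM in intact nerve. The groups still did not overlap, and 46.9% of the intact level was left in dKO and 44.1% in control nerves. The squalene synthase gene Fdft1 retained 41.9% in dKO and 38.9% in control nerves, but its exons overlap those of Ctsb, a lysosomal protease gene on the other strand, over 774 bases. The strand setting of the counting is not given in the sources used here, so reads of Ctsb cannot be told from those of Fdft1 there. Tm7sf2, a sterol reductase that retained 42.9% and 34.5%, shares 532 exon bases with Vps51 on its own strand.

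Ebp, the sterol isomerase, was the only sterol gene that did not fall. It had 28.8, 29.1 and 33.2 CPM in dKO 5DPI nerves, against 25.7, 28.1 and 27.5 CPM in dKO intact nerves. In control nerves Ebp had 49.3, 47.4 and 46 CPM at 5DPI, against 30.8, 28.8 and 28.7 CPM in intact nerve. All 5DPI libraries exceeded all intact libraries in each genotype, by a small margin in dKO and a wide one in control nerves. The injury change was 0.16 (SE 0.10, adjusted p 0.212) in dKO nerves, which was not called, and 0.69 (SE 0.10, adjusted p 6.04e-05) in control nerves, where Ebp rose. With upper-quartile scaling, which moved the median of all models in dKO nerves to 0.193, the dKO change of Ebp was 0.30 and was called (adjusted p 0.0186, with up to 0.58 under other alternatives).

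Promoter windows from 250 bases before to 50 bases after the RefSeq start were read for 27 of the 34 genes, 37 windows in all, from the GRCm38.p6 table. They were searched on both strands for the CCAAT box (CCAAT, or ATTGG on the printed strand) and for the letters TCACNCCAC of the sterol regulatory element. The windows of Hmgcs1 and Idi1, members with large falls, of the regulator Srebf2, and of Ebp, which did not fall, are shown with matches to these letters in capitals.
Hmgcs1, chr13:119690101-119690400, plus strand: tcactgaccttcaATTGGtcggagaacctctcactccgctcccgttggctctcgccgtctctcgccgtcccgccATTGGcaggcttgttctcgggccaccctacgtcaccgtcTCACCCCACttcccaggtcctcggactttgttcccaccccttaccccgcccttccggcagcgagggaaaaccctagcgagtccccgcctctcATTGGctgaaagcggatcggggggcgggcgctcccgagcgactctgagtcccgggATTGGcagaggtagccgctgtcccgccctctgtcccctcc
Idi1, chr13:8885356-8885655, plus strand: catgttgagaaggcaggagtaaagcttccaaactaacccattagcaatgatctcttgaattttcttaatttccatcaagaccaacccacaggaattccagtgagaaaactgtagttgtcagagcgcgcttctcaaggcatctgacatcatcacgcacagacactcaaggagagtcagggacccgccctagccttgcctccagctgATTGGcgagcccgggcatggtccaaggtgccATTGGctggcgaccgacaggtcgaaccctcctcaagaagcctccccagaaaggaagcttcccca
Srebf2, chr15:82147019-82147318, plus strand: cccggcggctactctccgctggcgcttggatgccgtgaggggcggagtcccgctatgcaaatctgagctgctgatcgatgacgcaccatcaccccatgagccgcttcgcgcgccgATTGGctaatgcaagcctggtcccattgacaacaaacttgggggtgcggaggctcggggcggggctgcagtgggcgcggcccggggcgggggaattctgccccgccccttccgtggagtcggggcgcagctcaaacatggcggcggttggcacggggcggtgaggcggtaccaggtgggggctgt
Ebp, chrX:8193463-8193762, minus strand: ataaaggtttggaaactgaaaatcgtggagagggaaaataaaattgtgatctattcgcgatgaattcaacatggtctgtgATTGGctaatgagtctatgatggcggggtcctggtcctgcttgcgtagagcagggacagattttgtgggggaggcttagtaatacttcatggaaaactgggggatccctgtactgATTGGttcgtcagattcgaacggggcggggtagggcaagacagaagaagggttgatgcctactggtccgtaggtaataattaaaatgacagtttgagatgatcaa

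The sterol regulatory element letters were found in 1 of 37 member windows (2.7%), that of Hmgcs1, and in 1.24% of all 32851 promoter windows. The CCAAT box stood in 62.2% of member windows, in 12 of the 16 sterol windows, and in 37.4% of all windows. Counted by gene, 12 of the 13 sterol genes with a window had it (92.3%), against 41.1% of all genes. Among the windows shown, Hmgcs1 had 4 CCAAT boxes, while Idi1 and Ebp had 2 each and Srebf2 had 1. A link between the box and the falls was not tested. The GC box (GGGCGG) stood in 73% of member windows and 35.7% of all windows. The E-box (CACGTG) stood in 16.2% of member windows, among them those of Insig1 and Scap, and in 7.15% of all windows. Its longer form TCACGTGA, the CLEAR core known as a TFEB and TFE3 site, was in 0 of 37 member windows and in 0.974% of all windows. No match means only that these letters are not in these windows.

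**Figure D2:**
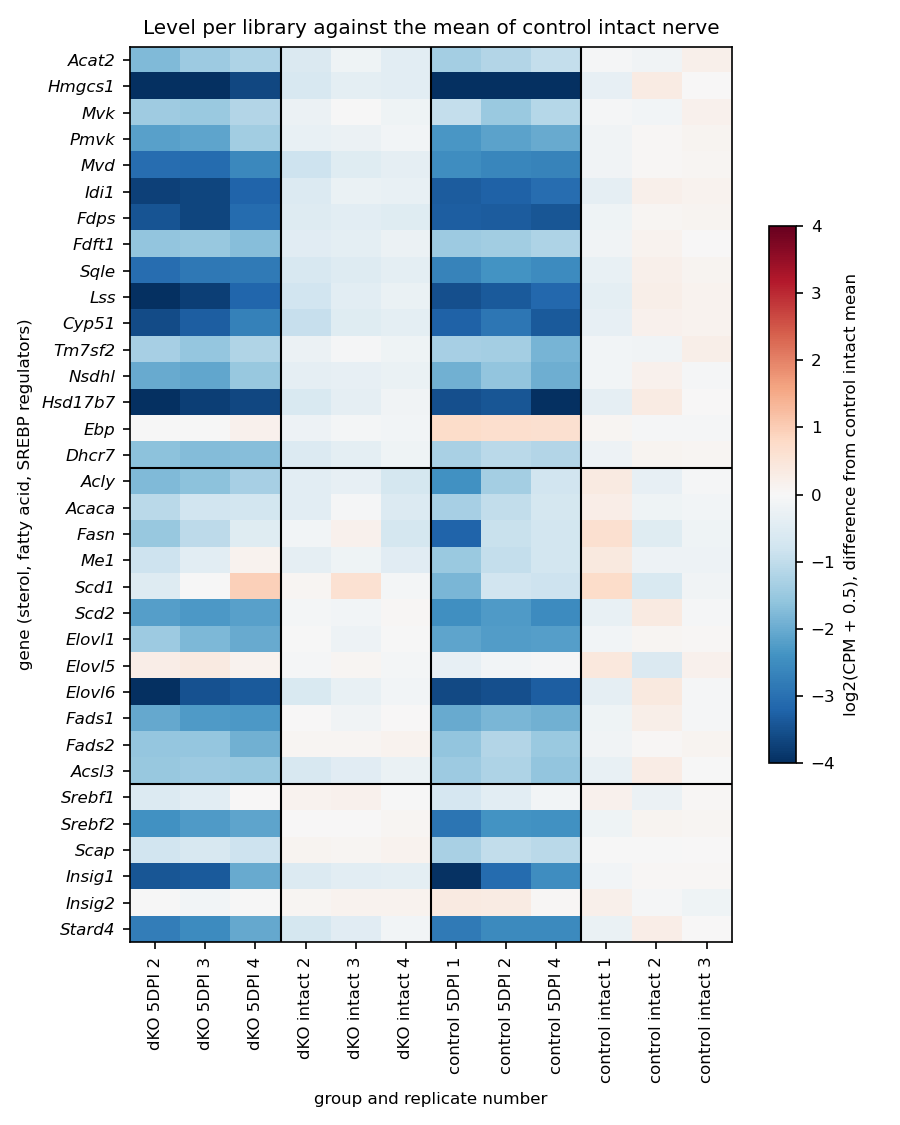
Each cell shows log2(CPM + 0.5) of a gene in a library minus its mean in control intact nerve, with blue for lower and red for higher and the colour scale ending at 4 in either direction. The 6 columns of 5DPI libraries, dKO and control, are blue for most sterol genes, while Fasn, Me1, Scd1 and Elovl5 differ between replicates of a group.

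In the fatty acid branch, Scd2, Elovl1, Elovl6, Fads1, Fads2, Acsl3, Acly and Acaca fell in both genotypes and Me1 in control nerves, while Fasn, Scd1 and Elovl5 were called in neither. Scd2, a stearoyl-CoA desaturase, which makes oleate, had 923, 869 and 953 CPM in dKO 5DPI nerves, against 4020, 3940 and 4410 CPM in dKO intact nerves. Its control levels were 786, 885 and 752 CPM at 5DPI, against 3490, 5430 and 4090 CPM in intact nerve. The 5DPI libraries lay within a narrow range far below the intact ones, with changes of -2.17 (SE 0.15, edgeR adjusted p 4.07e-08) in dKO and -2.43 (SE 0.15, adjusted p 8.6e-09) in control nerves. Per kilobase of exon, Scd2 was the most abundant of the 34 genes in intact nerve, at 756 ± 45.6 CPM per kb in dKO and 794 ± 181 CPM per kb in control nerves (SD, n = 3 each). At 5DPI the highest level per kilobase was that of Scd1 in dKO nerves, at 329 ± 178 CPM per kb, and that of Scd2 in control nerves, at 148 ± 12.7 CPM per kb.

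Elovl6, which lengthens palmitate to stearate, had 16, 25.3 and 27.6 CPM in dKO 5DPI nerves, against 192, 239 and 270 CPM in dKO intact nerves. In control nerves it had 23.3, 24.9 and 29.4 CPM at 5DPI, against 228, 378 and 283 CPM when intact. Its fall was the largest in the branch, at -3.35 (SE 0.24, adjusted p 1.91e-07) in dKO and -3.52 (SE 0.24, adjusted p 8.29e-08) in control nerves, with no overlap between groups. Fads1, a desaturase of polyunsaturated fatty acids, had 180, 154 and 152 CPM in dKO 5DPI nerves, against 750, 686 and 754 CPM in dKO intact nerves. Control 5DPI nerves had 186, 209 and 196 CPM of Fads1, against 663, 872 and 725 CPM in control intact nerves. Fads1 and its neighbour Fads2, the desaturase that acts before it, were lower at 5DPI in all libraries, Fads1 by -2.17 and -1.93 and Fads2 by -1.78 and -1.41 in dKO and control nerves. Acsl3, which links fatty acids to CoA, changed by -1.05 in dKO and -1.45 in control nerves.

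Elovl1, which makes very long-chain saturated and monounsaturated fatty acids, had 170, 135 and 115 CPM in dKO 5DPI nerves, against 463, 408 and 460 CPM in dKO intact nerves. Control nerves had 109, 100 and 103 CPM of Elovl1 at 5DPI, against 433, 495 and 485 CPM when intact. It fell by 1.66 (SE 0.13, adjusted p 1.82e-07) in dKO and by 2.18 (SE 0.13, adjusted p 8.78e-09) in control nerves on the log2 scale, without overlap.

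Acly, which makes cytosolic acetyl-CoA, and Acaca, the carboxylase that makes malonyl-CoA, were called lower in both genotypes. Acly changed by -1.10 (SE 0.35, adjusted p 0.027) in dKO and -1.39 (SE 0.35, adjusted p 0.00782) in control nerves, and Acaca by -0.54 (SE 0.18, adjusted p 0.0231) and -1.0 (SE 0.18, adjusted p 0.000378). In dKO nerves the call of Acly was lost without dKO 5DPI replicate 2 (adjusted p 0.0865) or 3 (0.0793) and without dKO intact replicate 2 (0.0601) or 3 (0.0712), within a range of 7.73e-05 to 0.0865 over the alternatives. The call of Acaca in dKO nerves was lost without dKO 5DPI replicate 2 (0.0896) or dKO intact replicate 3 (0.107), in a range of 0.00636 to 0.107. Upper-quartile scaling ended both calls (0.0554 for Acly and 0.0943 for Acaca), and the replicate block ended that of Acly (0.0514).

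Fasn, the fatty acid synthase, was not called in either genotype. It had 451, 622 and 918 CPM in dKO 5DPI nerves, against 1190, 1450 and 794 CPM in dKO intact nerves. Control levels of Fasn were 140, 703 and 784 CPM at 5DPI, against 2020, 933 and 1160 CPM in intact nerve. The control groups did not overlap and the dKO groups did, and the changes were -0.79 (SE 0.60, edgeR adjusted p 0.32) in dKO and -1.34 (SE 0.61, adjusted p 0.103) in control nerves. DESeq2 called the control change (adjusted p 0.0189), and the adjusted p ran up to 0.254 over the alternatives.

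Scd1, another stearoyl-CoA desaturase, had 934, 1310 and 2590 CPM in dKO 5DPI nerves, against 1430, 2030 and 1280 CPM in dKO intact nerves. In control nerves Scd1 had 378, 783 and 759 CPM at 5DPI, against 2240, 878 and 1220 CPM when intact. The dKO groups overlapped and the control groups did not, and neither change was called, at 0.03 (SE 0.47, adjusted p 0.964) in dKO and -1.18 (SE 0.48, adjusted p 0.0716) in control nerves. Without dKO 5DPI replicate 4 or without control intact replicate 2 the control change was called (adjusted p 0.0377 and 0.0469), and DESeq2 called it too (adjusted p 0.0294). Over the alternatives its adjusted p ran from 0.029 to 0.26. Reads of Scd1, Scd2, Scd3 and Scd4 may be shared where their sequences are alike.

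Me1, malic enzyme, which supplies NADPH for synthesis, had 98.3, 129 and 192 CPM in dKO 5DPI nerves, against 135, 154 and 126 CPM in dKO intact nerves. Its control levels were 61.2, 89.1 and 105 CPM at 5DPI, against 227, 152 and 152 CPM in intact nerve. Control nerves fell by 1.06 on the log2 scale (SE 0.26, adjusted p 0.00579), while dKO nerves changed by 0.01 (SE 0.26, adjusted p 0.973). The difference of the changes, 1.07 (SE 0.37), was not called by edgeR (adjusted p 0.168) but was called by DESeq2 (adjusted p 0.0301, in a range of 0.0301 to 0.69). Elovl5, which lengthens polyunsaturated fatty acids, had 92.1, 100 and 86.2 CPM in dKO 5DPI nerves, against 75.6, 81.2 and 73.9 CPM in dKO intact nerves. Control levels of Elovl5 were 61.1, 71.5 and 75.1 CPM at 5DPI, against 104, 51.3 and 86.5 CPM when intact. Control intact nerve alone spanned the levels of the other groups, and neither injury change was called (0.27, adjusted p 0.264, in dKO and -0.22, adjusted p 0.366, in control nerves).

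Fat cells make fatty acids, and markers of fat cells differed between libraries. The summed level of 10 such markers, led by Cfd and Fabp4, was 3560, 3800 and 4740 CPM in dKO 5DPI nerves and 2960, 3360 and 961 CPM in dKO intact nerves, against 3550, 2270 and 3650 CPM in control 5DPI nerves and 3220, 360 and 2110 CPM in control intact nerves. None of the 10 was called in any comparison by edgeR, and their medians were 0.57 for injury in dKO, 0.78 for injury in control, 0.34 for dKO against control in intact nerve and 0.37 at 5DPI. All 10 had a positive injury change in both genotypes, and the 5DPI nerves kept the epineurium that was stripped from intact nerves. Within control intact nerve, the library with the highest marker sum, replicate 1, also had the highest Fasn, Scd1, Me1 and Acly, and the library with the lowest sum, replicate 2, had the lowest Fasn, Scd1, Acly and Elovl5. Within dKO intact nerve, replicate 3 had the highest marker sum and the highest Fasn, Scd1, Me1 and Acly, and replicate 4 had the lowest of each. Within dKO 5DPI nerve, replicate 4 had the highest sum and the highest of these genes, and replicate 2 the lowest. In control 5DPI nerve, by contrast, replicate 1 had a marker sum near that of replicate 4 and above that of replicate 2, and the lowest Fasn, Scd1, Me1 and Acly of the 3. With the log2 of the marker sum as a covariate, an alternative chosen after seeing the data, every injury call among the 34 genes was kept, and Scd1 (-1.48, adjusted p 0.029), Elovl5 and Srebf1 were called in control nerves as well. Srebf1 was then called in dKO nerves too. Marker medians and dissection both differed with injury, so this fit cannot test the part of fat cells in the injury changes.

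**Figure D3:**
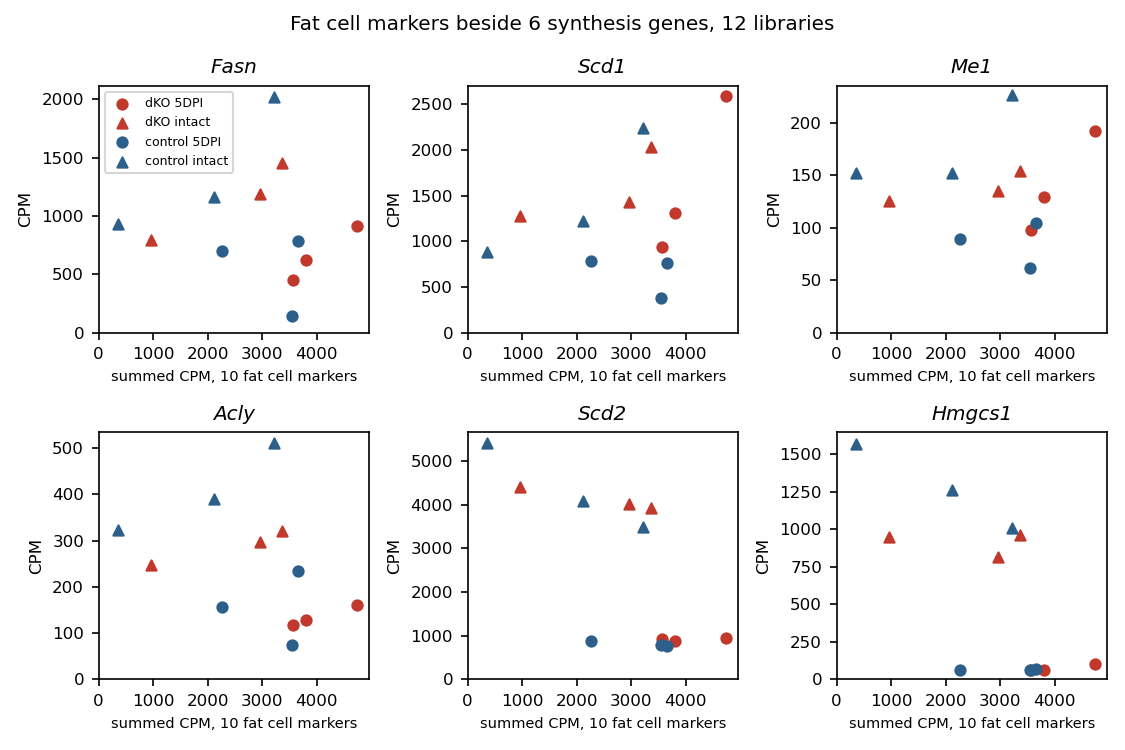
Each panel plots the CPM of a gene against the summed CPM of 10 fat cell markers in the 12 libraries, with circles for 5DPI and triangles for intact nerve, dKO in red and control in blue. Scd2 and Hmgcs1 separate 5DPI from intact libraries at any marker level, while Fasn, Scd1 and Me1 spread widely within groups.

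Among the regulators, Srebf2 fell with the sterol enzymes. It had 93.9, 104 and 116 CPM in dKO 5DPI nerves, against 512, 511 and 536 CPM in dKO intact nerves. Control levels were 65.8, 96.6 and 93.2 CPM at 5DPI, against 451, 542 and 530 CPM in intact nerve. No 5DPI library came near an intact one, and the changes were -2.31 (SE 0.15, edgeR adjusted p 2.19e-08) in dKO and -2.57 (SE 0.15, adjusted p 4.57e-09) in control nerves. The gene lies at chr15:82147181-82205379 on the plus strand of mm10.

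Srebf1 moved much less. Its levels were 157, 172 and 232 CPM in dKO 5DPI nerves, against 253, 259 and 231 CPM in dKO intact nerves. In control nerves they were 145, 172 and 214 CPM at 5DPI, against 260, 198 and 241 CPM in intact nerve. The groups overlapped in both genotypes, and the change of -0.40 (SE 0.16) in each was not called (adjusted p 0.0578 in dKO and 0.0598 in control nerves). For the mean change over both genotypes, in which 28.2% of all models were called lower, Srebf1 was called lower (-0.40, SE 0.12, edgeR adjusted p 0.00818). Within each genotype it was close to the threshold: over the alternatives tried, the adjusted p ran from 0.00968 to 0.212 in dKO and from 0.0148 to 0.2 in control nerves, the lowest in dKO being without dKO 5DPI replicate 4. DESeq2 called it in both genotypes (adjusted p 0.0417 and 0.0265 in dKO and control nerves).

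Scap, the escort of both SREBPs, had 87.4, 95.2 and 84.3 CPM in dKO 5DPI nerves, against 161, 159 and 164 CPM in dKO intact nerves. Control nerves had 60.2, 74.3 and 69.9 CPM of Scap at 5DPI, against 147, 149 and 151 CPM when intact. It fell in both, by 0.86 (SE 0.10, adjusted p 5.59e-06) in dKO and by 1.13 (SE 0.10, adjusted p 2.55e-07) in control nerves on the log2 scale. Insig1, which retains SCAP and is itself an SREBP target, had 22.6, 23.7 and 61.2 CPM in dKO 5DPI nerves, against 169, 186 and 192 CPM in dKO intact nerves. Control levels of Insig1 were 15.8, 29.3 and 44.4 CPM at 5DPI, against 232, 258 and 258 CPM in intact nerve. The 5DPI replicates of Insig1 differed from each other more than those of Srebf2 did, yet stayed below all intact libraries, with changes of -2.36 (SE 0.44, adjusted p 0.00207) in dKO and -3.07 (SE 0.46, adjusted p 0.000399) in control nerves.

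Insig2, a paralog of Insig1 that also retains SCAP, was not called in either genotype. It had 33.8, 31.9 and 33.8 CPM in dKO 5DPI nerves, against 36.2, 37.7 and 37.4 CPM in dKO intact nerves. Control levels of Insig2 were 44.3, 42.8 and 35.2 CPM at 5DPI, against 39.2, 33.3 and 30.6 CPM in intact nerve. In dKO nerves all 5DPI libraries were slightly below the intact ones, at -0.16 (SE 0.12, adjusted p 0.293), and in control nerves the groups overlapped, at 0.25 (SE 0.12, adjusted p 0.106). Without control 5DPI replicate 4 the control change of Insig2 was called higher (0.34, adjusted p 0.0298, in a range of 0.0295 to 0.36). Stard4, a soluble carrier of sterols between membranes, had 9.24, 11.1 and 15.5 CPM in dKO 5DPI nerves, against 40.8, 48.1 and 61.3 CPM in dKO intact nerves. Control nerves had 8.86, 10.9 and 10.8 CPM of Stard4 at 5DPI, against 54.5, 79.5 and 67.4 CPM when intact. Its changes, -2.08 (SE 0.21, adjusted p 2.24e-06) in dKO and -2.72 (SE 0.21, adjusted p 1.27e-07) in control nerves, were of the size of those of Srebf2.

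**Figure D4:**
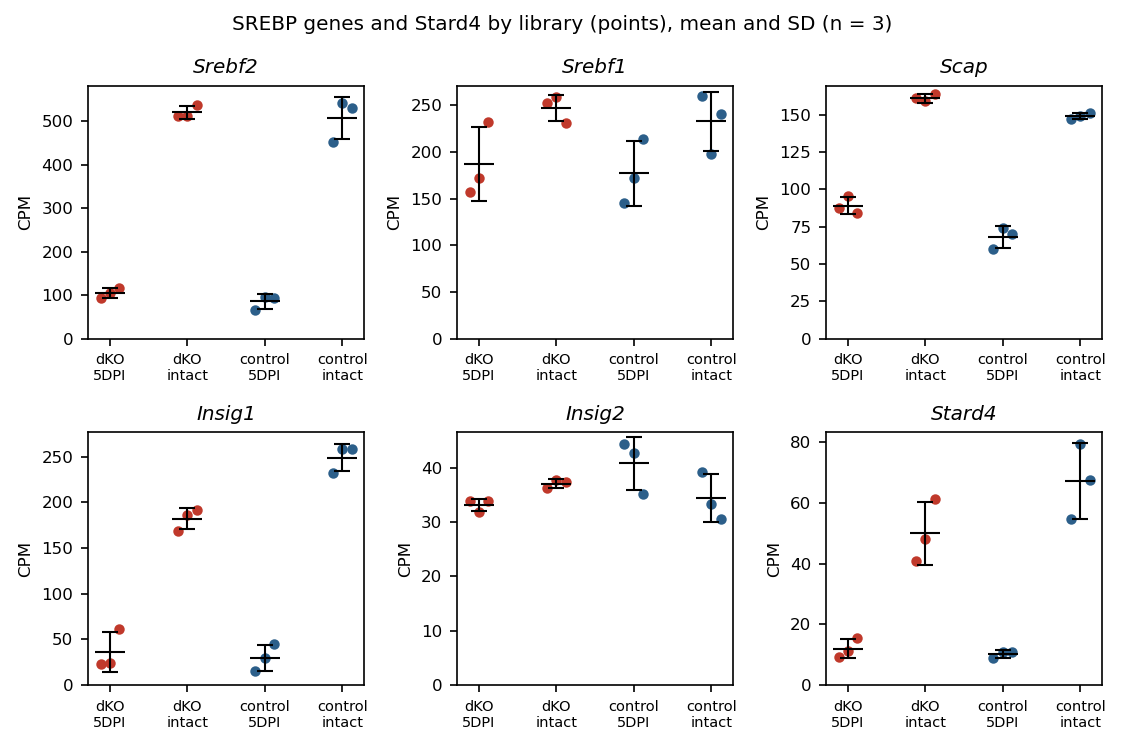
CPM of the 5 SREBP genes and Stard4 is shown for each library (points) with the mean and SD of each group (n = 3), in the order dKO 5DPI, dKO intact, control 5DPI, control intact. Srebf2, Scap, Insig1 and Stard4 are lower at 5DPI in both genotypes, while the 5DPI and intact groups of Srebf1 overlap and those of Insig2 differ little.

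Between genotypes in intact nerve, 0 of the 34 genes were called in either direction, where 0% of all models were called higher and 0.00447% lower by edgeR. DESeq2 and limma-trend also called 0 members. At an unadjusted p under 0.05, edgeR had 12 members lower and 0 higher, DESeq2 13 and 0, and limma-trend on the deposited normalized values 10 and 0, and of these 10, 11 and 9 were sterol genes. Among all models, 2.52% were lower and 3.29% higher at that level in edgeR. All 16 sterol genes had a negative log2 fold change, from -0.60 to -0.12 with a median of -0.39. The fatty acid branch had a median of -0.17 and the SREBP genes with Stard4 one of 0.06. Fdps, for example, had 68, 73.4 and 70.3 CPM in dKO intact nerves, against 86.8, 104 and 105 CPM in control intact nerves, a change of -0.48 (SE 0.13, adjusted p 0.841). The median of the sterol genes in each library, as log2 against the control intact mean, was -0.56, -0.37 and -0.26 in dKO intact nerves, against -0.16, 0.12 and 0.10 in control intact nerves. The 3 dKO libraries were thus below the 3 control libraries, though control intact replicate 1 was nearer to the highest dKO library than to the other control libraries. Leaving out any library moved the sterol median to between -0.52 and -0.29. The sum of the 12 myelinating Schwann cell markers overlapped between the genotypes in intact nerve, at 87500 to 97600 CPM in dKO and 80600 to 106000 CPM in control nerves, and 0 of the 12 were called.

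At 5DPI, 4 of the 34 genes differed between genotypes. Scap and Elovl1 were higher in dKO nerves, where 3.12% of all models were called higher, and Ebp and Dhcr7 were lower, where 8.97% were. The members' shares, 5.88% in each direction, were near these. The difference was -0.65 for Ebp (SE 0.10, edgeR adjusted p 0.000879), with 28.8 to 33.2 CPM in dKO nerves against 46 to 49.3 CPM in control nerves. Dhcr7 had 23, 21.3 and 22 CPM in dKO 5DPI nerves, against 29.1, 34.4 and 32.2 CPM in control 5DPI nerves, a difference of -0.53 (SE 0.12, adjusted p 0.0114). In intact nerve Dhcr7 had 49.3, 55.7 and 64.1 CPM in dKO, against 63.5, 77.9 and 77.5 CPM in control nerves, so that the groups overlapped there. The difference at 5DPI was 0.39 for Scap (SE 0.10, adjusted p 0.0169) and 0.43 for Elovl1 (SE 0.13, adjusted p 0.0422). For all 4 genes the groups did not overlap, which adds no separate support, since the genes were picked by calls on these same libraries.

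The 4 libraries with olfactory receptor reads include every dKO library at 5DPI and control 5DPI replicate 4. Against that control replicate alone, the dKO 5DPI mean on the log2 scale was -0.59 for Ebp, -0.53 for Dhcr7, 0.43 for Elovl1 and 0.34 for Scap. Against control 5DPI replicates 1 and 2 it was -0.67, -0.51, 0.40 and 0.41. The sizes were close, but the first comparison rests on a single control library and every dKO library at 5DPI is in the set. Genotype and set therefore cannot be told apart beyond that library. With a term for the set only the call of Ebp was kept (edgeR adjusted p 0.157 for Dhcr7, 0.297 for Scap and 0.352 for Elovl1). The call of Ebp was also kept under every alternative tried, at an adjusted p of 0.0374 or less. The call of Dhcr7 was lost without dKO 5DPI replicate 3 (adjusted p 0.0543, with a range of 0.00692 to 0.157 over the alternatives). That of Scap was lost without dKO 5DPI replicate 3 (0.0852) or control 5DPI replicate 1 (0.0837), with a range of 0.00141 to 0.297. Elovl1 was called in 4 of the 12 fits that left out a library, and the largest adjusted p of those fits, 0.21, came without dKO 5DPI replicate 2, where the difference was 0.27. Over all alternatives its adjusted p ran from 0.0134 to 0.352. Elovl1 exons also overlap those of Cdc20 on the other strand over 53 bases.

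Against these small differences, 10 of 12 myelinating Schwann cell markers were higher in dKO nerves at 5DPI, with a median of 1.94, while 4 of 6 markers of Schwann cells at large were lower, with a median of -0.99, as were 6 of 7 repair Schwann cell markers (-1.38) and all 6 markers of dividing cells (-1.40). Of all models, 3.12% were called higher and 8.97% lower there. For these markers too, genotype and library set cannot be told apart beyond control 5DPI replicate 4. The sterol branch had a median of -0.22 in that comparison, the fatty acid branch 0.15 and the SREBP genes with Stard4 0.24, and all tested models -0.02. Against control 5DPI replicate 4 alone the dKO medians were -0.22, -0.05 and 0.01 in the same order. With a term for the library set they were -0.22, -0.04 and 0.02, without control 5DPI replicate 1 they were -0.20, -0.06 and 0.03, and without dKO 5DPI replicate 4 they were -0.29, 0.02 and -0.06, so the positive medians rest on these libraries. The part of these cell types in the differences of Ebp, Dhcr7, Elovl1 and Scap was not tested.

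**Figure D5:**
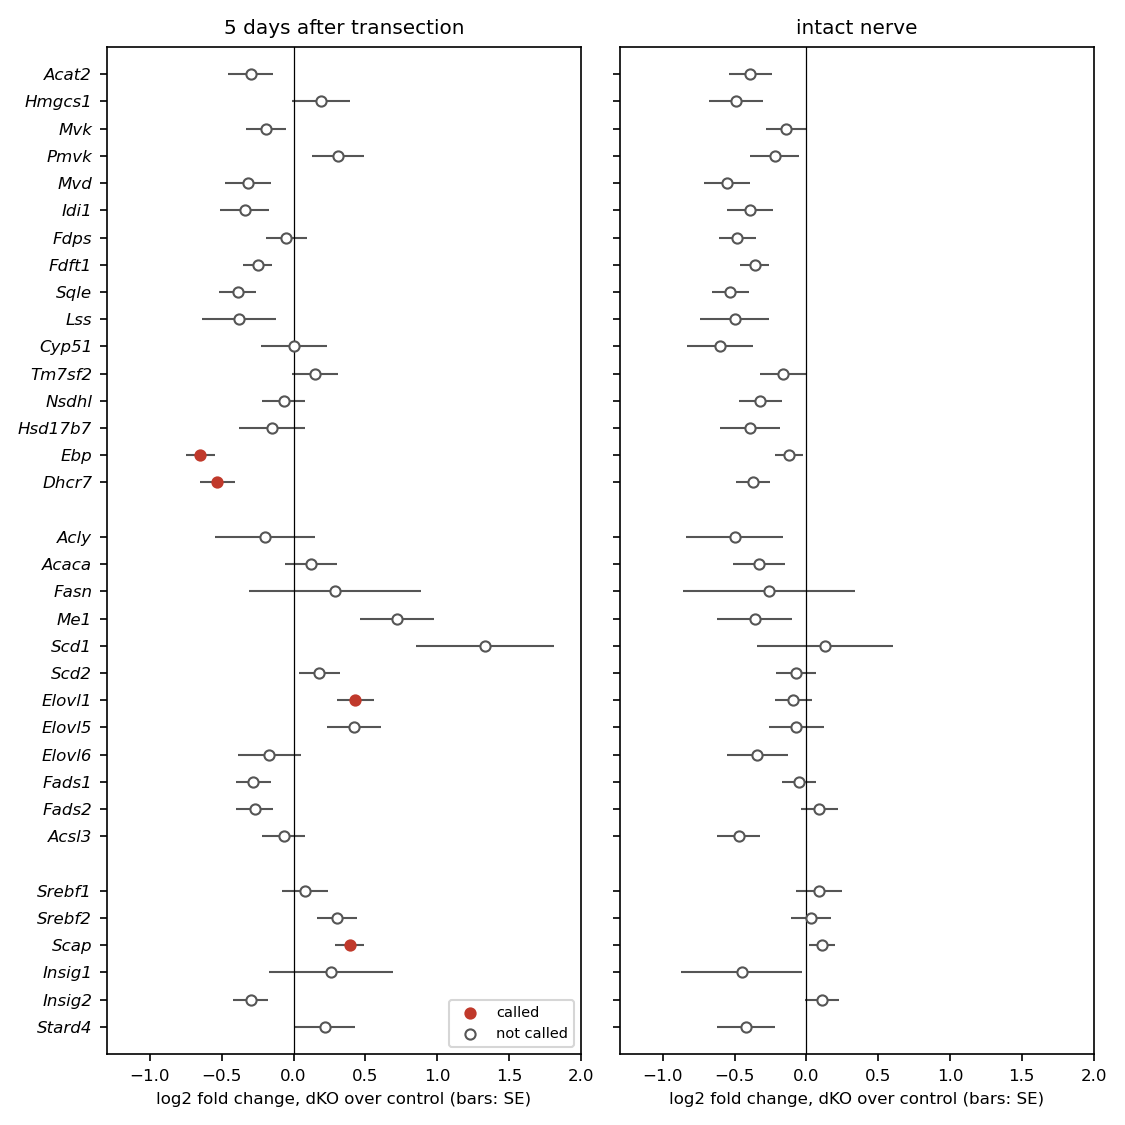
The log2 fold change of each gene, dKO over control, is shown at 5DPI (left) and in intact nerve (right), with bars for the standard error and filled points for edgeR calls. The 16 sterol genes all lie left of 0 in intact nerve without a call, and at 5DPI Ebp and Dhcr7 are called lower and Elovl1 and Scap higher.

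The injury changes of the 34 genes were compared directly between genotypes as the change in dKO minus that in control nerves. The edgeR test called 0 of 34 in either direction, where 0.737% of all models were called higher and 2.17% lower. At an unadjusted p under 0.05 it had 5 higher and 2 lower, and limma-trend called 0, with 6 higher and 2 lower at that level. DESeq2 called Me1 higher and Ebp lower. The median difference was 0.26, and 27 of the 34 genes had a positive value, a less negative or a positive change in dKO nerves. Over all tested models the median was -0.03, with 10511 of 22384 positive. The members' median was 0.16 with a term for the library set, which holds every dKO 5DPI library. It was 0.15 without dKO 5DPI replicate 4 and 0.19 without control 5DPI replicate 1. Because both injury comparisons enter the difference, it repeats the genotype differences at 5DPI and in intact nerve. For Ebp the difference was -0.53 (SE 0.14, adjusted p 0.0675), and it was called without dKO 5DPI replicate 4 (adjusted p 0.0477) or control 5DPI replicate 4 (adjusted p 0.0473), with a range of 0.0226 to 0.339 over the alternatives.

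Sterol enzymes outside the 34 genes fell as well. Of 7 listed, Erg28 was not matched, and of the 6 tested 5 were lower in dKO and 6 in control nerves. Sc5d, a late desaturase of the sterol ring, had 17.3 to 26.5 CPM in dKO 5DPI nerves against 164 to 186 CPM in dKO intact nerves, and 18.3 to 24.6 CPM in control 5DPI nerves against 195 to 248 CPM in control intact nerves. Its changes were -3.07 in dKO and -3.37 in control nerves. Of 12 further regulators, 7 were lower in dKO nerves, and 8 were lower and 1, Mlx, higher in control nerves, against 22.6% of all models lower in dKO nerves and 22.4% lower and 24.4% higher in control nerves. Among these Mylip, which codes for an E3 ubiquitin ligase, had 55.2, 57.9 and 54.7 CPM in dKO 5DPI nerves, against 95.2, 98.3 and 68.2 CPM in control 5DPI nerves, and was lower in dKO (-0.64, adjusted p 0.0057). Control replicate 4 was the nearest to the dKO libraries, and with a term for the library set the difference was -0.29 and was not called (adjusted p 0.435, the highest over the alternatives, which began at 0.000495).

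Of 24 further fatty acid genes, Elovl3 was not tested, and of the other 23, 5 were higher and 12 lower at 5DPI in dKO nerves and 3 were higher and 11 lower in control nerves. These are 21.7% higher and 52.2% lower in dKO nerves, against 22% and 22.6% of all models. In control nerves they are 13% higher and 47.8% lower, against 24.4% and 22.4% of all models. The share of genes that rose was thus not above that of all models. Elovl7, an elongase of long-chain fatty acids, had 9.24 to 14.2 CPM in dKO 5DPI nerves against 113 to 141 CPM in dKO intact nerves, and 9.97 to 12.9 CPM in control 5DPI nerves against 122 to 202 CPM in control intact nerves. Its changes were -3.42 in dKO and -3.73 in control nerves. Tecr, the reductase of the elongation cycle, changed by -1.63 in dKO and -1.75 in control nerves. The acyl-CoA synthetases Acsl4 and Acsl5 rose with injury, Acsl5 by 1.34 in dKO and 1.68 in control nerves. At 5DPI, 6 of the 23 were lower in dKO than in control nerves and 1, Fads3 (0.41, adjusted p 0.032), was higher, against 8.97% of all models called lower and 3.12% called higher. The 6 were Acsl4 (-0.68, adjusted p 0.00974), Acsl5 (-0.37, adjusted p 0.0452), Elovl4 (-1.81, adjusted p 0.0119), Hacd3 (-0.40, adjusted p 0.0411), Hsd17b12 (-0.52, adjusted p 0.0016) and Scd3 (-0.72, adjusted p 0.0196). The call of Hsd17b12, which works in the elongation cycle, was kept under every alternative tried, at an adjusted p of 0.0177 or less. With a term for the library set the other 6 calls were lost, at an adjusted p of 0.123 for Acsl4 (-0.72), 0.813 for Acsl5 (-0.12), 0.295 for Elovl4 (-1.46), 0.78 for Hacd3 (-0.15), 0.631 for Scd3 (-0.33) and 0.335 for Fads3 (0.41). Leaving out single libraries also ended the calls of Acsl4 (without dKO 5DPI replicate 3), Elovl4 (without dKO 5DPI replicate 3 or control 5DPI replicate 1), Scd3 (4 of 12 libraries), Fads3 (6 of 12), Acsl5 (10 of 12) and Hacd3 (9 of 12).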

How the data were processed

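The authors deposited a table of raw, whole-number counts and a table of normalized signal. Dividing the first by the second gave a ratio that was constant within a library to 0.0685%, so the normalized signal holds the counts over 1 factor per library. The submitters' processing notes name DESeq2, R 4.2.1 and the mm10 build. For aligner, counter, strand and annotation, nothing is given in the sources used here. The main test was edgeR 4.0.16 on the counts (R 4.3.3, filterByExpr with a minimum count of 10, TMM scaling, robust quasi-likelihood fit of all 12 libraries, 1 mean for each group), with Benjamini-Hochberg adjustment over 22384 models. CPM are TMM-scaled. The scripts were tested on simulated data. With 3 libraries against 3, an exact permutation test cannot go below 0.1, so none was used for a single gene. Each replicate pair differed beyond counting noise. Alternatives were DESeq2 1.42.0, limma-trend (limma 3.58.1) on log2(signal + 1) of the deposited normalized values, other scalings and filters, fits of the compared groups only, a term for the library set, a replicate block, leaving out each library, and a threshold of 0.01.

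The 34 genes, the lists of other genes and markers, and the library set were chosen with earlier results of these data known. Levels in every library are given for the SREBP genes and Stard4, for the 4 members of each branch with the smallest p and the 2 with the largest p for the mean injury change, for members called against their branch's direction or between genotypes, and, chosen after their values were seen, for Fasn and Me1. Some genes that the same rule names outside the 34 are not reported here. Positions and exon lengths are from GENCODE M21 and promoters from RefSeq GRCm38.p6.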

Additional observations from a re-analysis of the deposited data

How the results depend on the processing

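All calls among the 34 genes kept their direction under every alternative tried. Injury in dKO nerves gave 1 member higher in place of 0 with upper-quartile scaling (Ebp) or only the compared groups (Elovl5), and 25 to 28 lower when a library was left out. Injury in control nerves gave 2 higher in place of 1 with a term for the library set, and 1 to 2 higher and 28 to 31 lower when a library was left out. At 5DPI, the 2 members higher in dKO were 4 with DESeq2, 1 with no filter, 0 with the library set term, 0 with the replicate block, 0 at a threshold of 0.01, and 0 to 3 when a library was left out. The 2 lower were 1 with the library set term, 1 at a threshold of 0.01, and 1 to 3 when a library was left out. For the difference of injury changes, DESeq2 gave 1 higher and 1 lower in place of 0, and leaving out a library gave 0 to 1 of each. The samples were treated as unpaired, since the labels do not say that a number marks an animal and not every same-number correlation was over 0.1. These were 0.20, 0.19 and 0 in dKO and -0.12 and 0.01 in control nerves. Control number 1 does not mark 1 animal, because the sex-linked counts of its libraries differ. Its 5DPI library had 10712 Xist and 244 Y-linked counts, and its intact library had 3 and 3068. The replicate block pairs these libraries nonetheless. For the other numbers, the correlations do not settle whether they share an animal. With the replicate block, injury in dKO nerves gave 26 members lower and Sqle was added to the lower calls at 5DPI. Over all models at 5DPI, the library set term left 145 higher and 370 lower, the replicate block 349 and 1037, and leaving out control 5DPI replicate 4 gave 1421 higher, against 699 and 2008. The causes were not tested.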
